A study of Mus musculus with 167 samples.

Results

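The first day of phenobarbital was compared with control in the livers of male C57BL/6 mice that lack both the constitutive androstane receptor (CAR, gene Nr1i3) and the pregnane X receptor (PXR, gene Nr1i2). The samples were chosen by their labels alone: genotype CAR/PXR knock-out, time point of 1 day, and treatment with phenobarbital or control. They number 10 of the 167 arrays of the series, 5 treated animals (numbered 4001 to 4005) and 5 controls (3001 to 3005), with 1 array per animal. All were 9 to 11 weeks old by their labels, and the treated animals had free access to drinking water, for which the protocol text names 0.05% (wt/vol) phenobarbital. The same text gives other, lower doses and a different age at the start as well, and the labels of single samples name no dose. Both receptors are missing in the controls as well, and the breeding scheme, littermates included, was not stated in the labels. The comparison groups were wild-type and humanized CAR/PXR mice on day 1, of 5 treated and 5 control animals each, and the knockout on days 7, 14, 28 and 91, with 3 to 5 animals a group. Humanized animals carry the human forms of both receptors. Whole liver was powdered before extraction, so that in these bulk samples fewer cells of a type and less RNA per cell cannot be told apart.

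Phenobarbital is a barbiturate that releases CAR into the hepatocyte nucleus, where the receptor switches on Cyp2b10 and other genes of drug metabolism. PXR shares part of these target genes. Liver RNA also follows the time of day through a feedback loop in which ARNTL (BMAL1) and CLOCK drive the Per, Cry, Nr1d and Dbp genes, whose products act back on the loop or pass the rhythm to output genes. It follows feeding too, through insulin and the factors SREBP-1c and ChREBP, which raise the enzymes that make fatty acids after a meal, and through PPAR alpha and glucocorticoids, which raise oxidation and glucose output in fasting. The protocol states that animals were killed between 9 and 11 in the morning to keep the clock from differing. The comparison therefore bears on what the drug was followed by without both of its best known receptors, and the clock genes show whether the groups were at the same phase.

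Levels are RMA log2 values, on which a difference of 1 is a 2-fold change, and differences are treated minus control with their standard error (SE). A gene was called when its Benjamini-Hochberg adjusted p in limma was under 0.05. Nr1i3 was measured at 4.67 to 5.38 in all 55 knockout samples against 7.74 to 8.91 in 56 wild-type samples, and Nr1i2 at 3.33 to 4.01 against 6.91 to 8.02, with no overlap for either. In the day 1 knockout, 1019 of 12623 genes tested (8.07%) were called, 437 higher (3.46%) and 582 lower (4.61%), and 2809 had an unadjusted p under 0.05. The median difference over all genes tested was 0.001. Most called differences were small: 58 genes were called and at least 1.5-fold higher (0.459%), and 27 were called and at least 1.5-fold lower (0.214%). With each array centred on its median the split was 565 higher and 466 lower. Fitted on the 10 arrays alone, with no spread borrowed from other groups, 167 genes were called, 157 of them among the 1019. Without control 3001 the count was 388, without treated 4002 it was 509, without 4001 it was 602, without 4003 it was 653, and without any other single animal it was 850 to 1372. Marker genes of macrophages (12), endothelium (9), stellate cells (10), bile ducts (4), T and NK cells (4), B cells (5), neutrophils (5), fat (5) and red cells (1) held no called member. The hepatocyte list had 2 called of 9, the transcription factor Hnf4a at −0.25 and the fibrinogen chain Fgb at −0.14. Differences, called or not, were unevenly split. Above 0 lay 11 of 12 macrophage and 10 of 10 stellate cell markers, with medians of 0.12 and 0.08. So did 7 of 9 endothelial, 3 of 4 T and NK cell and 4 of 5 B cell markers. The same held for 3 of 5 fat markers and the 1 red cell marker. By contrast 3 of 9 hepatocyte, 1 of 4 bile duct and 2 of 5 neutrophil markers lay above 0.

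Treated animal 4002 stood apart in 1 respect. Its 11 markers of pancreatic acinar cells averaged 8.98, against 5.08 to 5.31 in the other 9 animals, and none of the 11 was called. The comparison groups of day 1 varied in this mean as well. In wild type it was 9.66, 10.14, 8.51, 5.55 and 6.76 in controls 1001 to 1005. It was 5.39, 6.93, 5.23, 9.16 and 5.27 in treated wild-type animals 2001 to 2005. In humanized mice it was 6.68 in control 5004, 12.32 in treated 6003 and 6.89 in treated 6004, and lower in the others. Treated animal 4004 stood apart in its clock genes, described next, and control 3001 in its sterol genes. For the main genes below, the animals whose removal ended a call are given, or their number. The shares of all genes tested to set beside list counts are 3.46% higher and 4.61% lower in the knockout. They are 5.02% and 6.97% in wild type, and 3.95% and 7.78% in humanized mice, on day 1.

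Clock genes differed between the arms. Of 15 core clock genes tested, 3 were higher and 2 lower, and of 11 output genes, 1 was higher and 3 lower, with median differences of 0.10 and −0.15. Among all genes tested 3.46% were higher and 4.61% lower. Dbp, a transcription factor that carries the rhythm to output genes, stood at 5.70, 6.77, 6.33, 5.37 and 6.28 in controls 3001 to 3005 and at 8.47, 7.58, 10.29, 5.81 and 9.56 in treated 4001 to 4005. In 4 of the 5 treated animals it lay above every control, while 4004 lay within the control range. The difference was 2.25 ± 0.65 (SE, adjusted p = 0.0168), and its call was lost without 3001, 4003 or 4005.

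Some other genes of the loop and its output differed as well. The repressors Nr1d2 and Nr1d1 (REV-ERB beta and alpha) were higher by 1.01 ± 0.27 and 0.67 ± 0.13, and Per3, a Period gene, by 0.63 ± 0.18. The call for Nr1d2 was lost without 3005 and that for Per3 without 4001, 4003 or 4005. Cry1, a Cryptochrome repressor of the loop, stood at 8.46, 7.53, 7.43, 7.30 and 8.91 in controls and at 6.80, 6.89, 6.42, 7.94 and 6.86 in treated animals, a difference of −0.95 ± 0.20 (adjusted p = 0.00061). Again 4004 alone of the treated animals lay within the control range. Lonrf3, Tspan4 and Nfil3 were lower, with differences of −0.98, −0.62 and −0.67. NFIL3 is a repressor that competes with DBP for the same DNA element, and its call was lost without any of 5 animals. Per1, which also responds to glucocorticoids, differed by −0.56 (adjusted p = 0.047), a call that 8 of the 10 single removals ended. Arntl itself stood at 8.03 to 8.26 in controls and at 7.76, 8.10, 7.35, 8.33 and 7.43 in treated animals, a difference of −0.41 that missed the threshold (adjusted p = 0.275), although its other probe set was called at −0.58. Not past the threshold were also Clock (−0.23), Npas2 (−0.22), Per2 (0.32), Cry2 (0.27), Bhlhe40 (0.50), Tef (0.23) and Hlf (−0.23). No core clock gene was called when the 10 arrays were fitted alone, and of the output genes Tspan4 was.

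**Figure D1:**
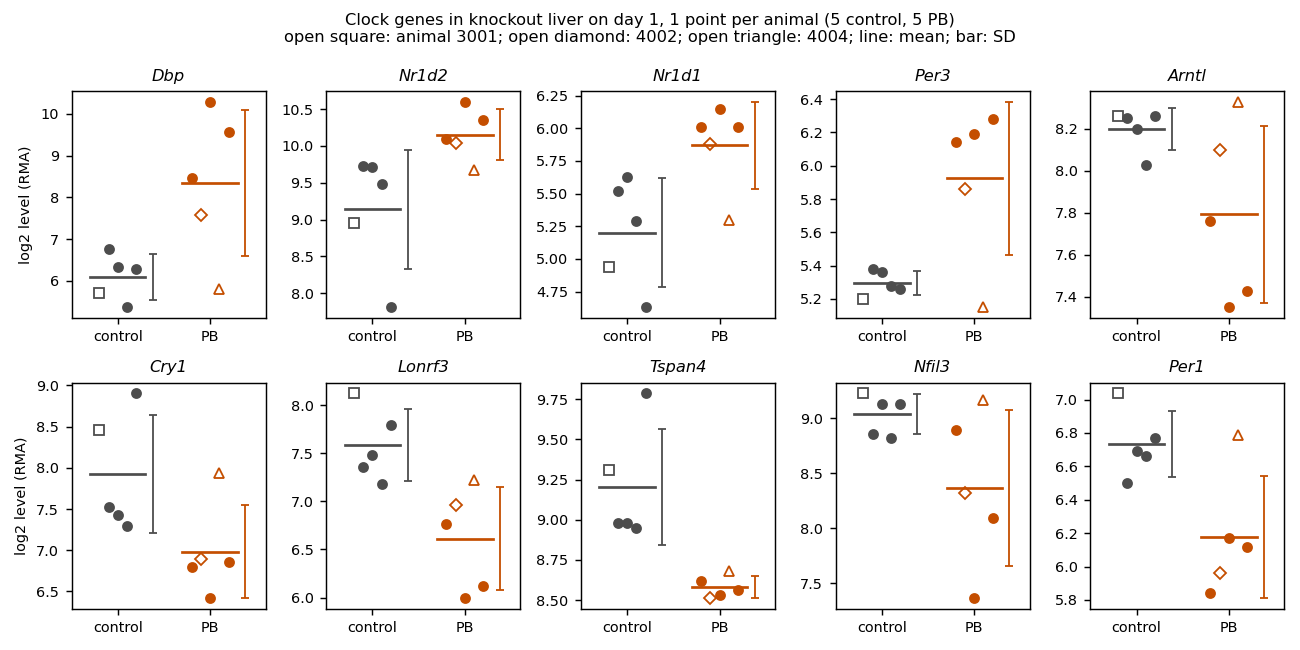
Log2 levels of 10 clock genes in each day 1 knockout animal, 5 controls (grey) and 5 treated with phenobarbital (PB, orange), on a separate axis per gene that does not start at 0; lines are means, bars SD, and open symbols animals 3001, 4002 and 4004. Treated animal 4004 lies within or next to the control range for Dbp (5.81), Per3 (5.15), Arntl (8.33) and Nfil3 (9.17), while for Tspan4 all 5 treated animals (8.51 to 8.68) lie below all controls (8.95 to 9.79).

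A clock index, Dbp minus Arntl in each animal, was taken as a stand-in for phase. It was −2.66 to −1.48 in controls and 0.71, −0.53, 2.94, −2.52 and 2.14 in treated animals 4001 to 4005. The mean difference was 2.66 (exact permutation test over 252 splits, two-sided p = 0.0317, where 0.00794 is the smallest the design allows). Leaving out 3001 or 3004 gave 2.55 and 2.52, each with an exact p of 0.0635. The mean index of the day 1 knockout controls, −2.11, lay within the means of the other knockout control groups, which ran from −3.30 on day 7 to −0.73 on day 28, where 1 animal reached 4.60. The treated day 1 group, at 0.55, lay above the means of the other treated knockout groups, −2.99 to −1.73. On day 1 the mean index also differed by 3.42 in humanized mice and by 0.79 in wild type. Treated humanized animals were spread from −2.70 to 5.58, and their controls from −2.82 to −1.38. In wild type the ranges were −3.62 to −1.08 and −3.38 to −2.80.

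When the index was entered in the model as a covariate, 1356 genes were called, 906 of them among 1018 called without it (89% of these, Dbp and Arntl left out), and none in the opposite direction. Of 62 named genes, 53 remained called. The others were the clock genes Nr1d2 (0.46), Per3 (0.19) and Nfil3 (−0.21), and Nlrp12, Cyp3a13, Acot1, Slc2a2, Stip1 and Slc27a5. Cry1 and Lonrf3 remained called at −0.64 and −0.59. The index holds a part of the treatment difference itself, so the treatment and the clock phase cannot be told apart here.

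**Figure D2:**
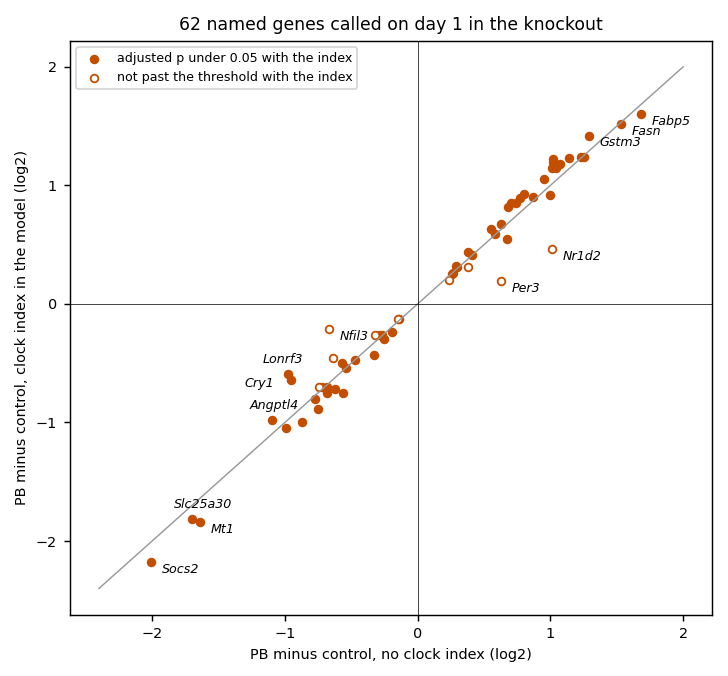
Difference between phenobarbital (PB) and control in the day 1 knockout for 62 named genes, without the clock index (x axis) and with it as a covariate (y axis), both in log2 units; the grey line marks equal values and open points 9 genes not past the threshold with the index. Fasn (1.53 and 1.52), Gstm3 (1.29 and 1.42) and Socs2 (−2.01 and −2.18) lie near the line, while Nr1d2 (1.01 and 0.46) and Per3 (0.63 and 0.19) lie below it.

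The promoters of 4 called clock genes are shown because they hold, in the 250 bases before the start, the letters through which the loop is known to act: the E-box CACGTG of ARNTL and CLOCK, the D-box TTANGTAA of DBP and NFIL3, and the element TAGGTCA of the ROR and REV-ERB factors. Sequences are from RefSeq (GRCm38.p6), 5′ to 3′ on the strand of the gene, and capitals mark the motif.
Per3 (chr4:151044666-151044915, minus strand, D-boxes at −205 and −158): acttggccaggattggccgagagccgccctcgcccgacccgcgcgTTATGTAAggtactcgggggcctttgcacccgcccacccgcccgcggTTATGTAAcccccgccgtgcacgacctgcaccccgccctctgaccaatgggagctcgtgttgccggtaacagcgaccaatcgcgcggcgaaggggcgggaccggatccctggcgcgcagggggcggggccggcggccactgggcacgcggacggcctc
Cry1 (chr10:85185055-85185304, minus strand, E-box at −60): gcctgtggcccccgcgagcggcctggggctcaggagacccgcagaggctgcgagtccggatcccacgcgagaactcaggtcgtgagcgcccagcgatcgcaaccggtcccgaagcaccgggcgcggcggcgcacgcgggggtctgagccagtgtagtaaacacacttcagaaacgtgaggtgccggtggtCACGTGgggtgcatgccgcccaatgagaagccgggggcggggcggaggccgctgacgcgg
Tspan4 (chr7:141476130-141476379, plus strand, E-box at −51): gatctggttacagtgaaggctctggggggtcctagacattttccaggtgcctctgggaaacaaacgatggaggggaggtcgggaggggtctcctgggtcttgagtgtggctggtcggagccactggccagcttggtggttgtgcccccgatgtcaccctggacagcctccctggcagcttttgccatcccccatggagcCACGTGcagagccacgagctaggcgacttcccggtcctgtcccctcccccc
Nfil3 (chr13:52981040-52981289, minus strand, ROR element at −12, read on the opposite strand): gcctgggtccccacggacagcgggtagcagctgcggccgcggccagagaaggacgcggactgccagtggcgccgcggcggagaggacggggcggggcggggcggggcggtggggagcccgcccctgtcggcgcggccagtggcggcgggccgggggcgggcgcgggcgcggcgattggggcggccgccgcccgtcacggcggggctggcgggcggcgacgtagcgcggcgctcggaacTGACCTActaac
On either strand, the E-box occurred in 6.02% of all promoters of that length in the table, the D-box in 2.06% and the ROR element in 2.23%. Counted by gene, as the clock genes are, the shares were 6.86%, 2.44% and 2.55% of 27025 genes. Of 26 clock genes tested, 22 had a promoter in the table, and 7, 1 and 1 of these held the respective motif. The E-box genes Cry1, Lonrf3, Tspan4 and Per1 were lower in treated animals, while Ciart (0.10), Bhlhe41 (0.12) and Tef (0.23), with the same letters, missed the threshold, and Per3, with 2 D-boxes, rose. A match describes the letters only.

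Genes of fatty acid synthesis rose together. Of 20 lipogenesis genes tested, 11 were higher and 0 lower (against 3.46% of all genes tested higher), with a median difference of 0.70. In wild type 4 of the 20 were higher and 1 lower on day 1, with a median of 0.34. In humanized mice 8 were higher and 0 lower, with a median of 0.46. Of all genes tested, 5.02% and 3.95% were higher in these genotypes. Fasn, the fatty acid synthase, stood at 9.27, 10.02, 10.73, 9.19 and 10.67 in controls and at 11.98, 11.94, 11.61, 10.66 and 11.36 in treated animals. All treated animals but 4004 lay above every control, and the difference was 1.53 ± 0.34 (adjusted p = 0.00171). Elovl6, which lengthens the product of FASN, differed by 1.25 ± 0.30, with controls at 9.32 to 10.59 and treated animals at 10.49 to 11.76. Thrsp, a thyroid hormone-responsive partner of lipogenesis, rose by 1.23 ± 0.34, though its call was lost without 3001 or 3004.

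Other enzymes linked to fatty acid synthesis rose as well. Acly, which makes cytosolic acetyl-CoA from citrate, was higher by 1.04, and Acss2, which makes it from acetate, by 1.02. Acacb and Acaca, the acetyl-CoA carboxylases, were higher by 1.07 and 0.77. Me1, the malic enzyme that supplies NADPH, was higher by 0.95 ± 0.22: controls held 10.88 to 11.89 and treated animals 11.94 to 12.60, with no overlap. Gpam, which starts glycerolipid synthesis, rose by 0.89, the elongase Elovl5 by 0.46 and Srebf1, which encodes SREBP-1c, by 0.60 (adjusted p = 0.049). Not past the threshold were Pnpla3 (1.04, adjusted p = 0.173), Pklr (0.63), Scd2 (0.35), Mlxipl, which encodes ChREBP (0.22), and Scd1 (0.15). Fads1 (0.08), Agpat2 (−0.02), Dgat2 (−0.03) and Fads2 (−0.07) were near 0. Outside the list, Fabp5, a fatty acid carrier, had the largest rise after Dbp, 1.68 ± 0.45, from 9.35 to 11.99 in controls to 11.21 to 12.86 in treated animals. Pnpla5, a lipid droplet hydrolase, rose by 1.14 ± 0.35 (lost without 3001, 3004, 4001 or 4002).

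Control animals differed much among themselves in these genes. The mean level of the 20 genes was 10.09, 10.46, 10.73, 9.95 and 10.84 in controls 3001 to 3005, and 11.28, 11.31, 11.00, 10.72 and 11.04 in treated animals. Animals 3001 and 3004 were lowest, and 4004 lay within the control range. The count of higher genes was 5 without 3001, 8 without 3004, 13 without 4004, and 9 to 11 without any other animal. Acacb, Acly, Acss2 and Fabp5 lost their call without 3001, while Fasn, Elovl6 and Me1 kept theirs under every single removal. Compared with knockout controls of the other 5 days, the day 1 controls had a median difference of −0.40 over the 20 genes and the day 1 treated animals one of 0.18. For Fasn these values were −1.03 and 0.51. Both comparisons use the same arrays as the main one and are given as values. With the clock index in the model 12 of the 20 were higher, with a median of 0.73, and on the 10 arrays alone 7 were.

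**Figure D3:**
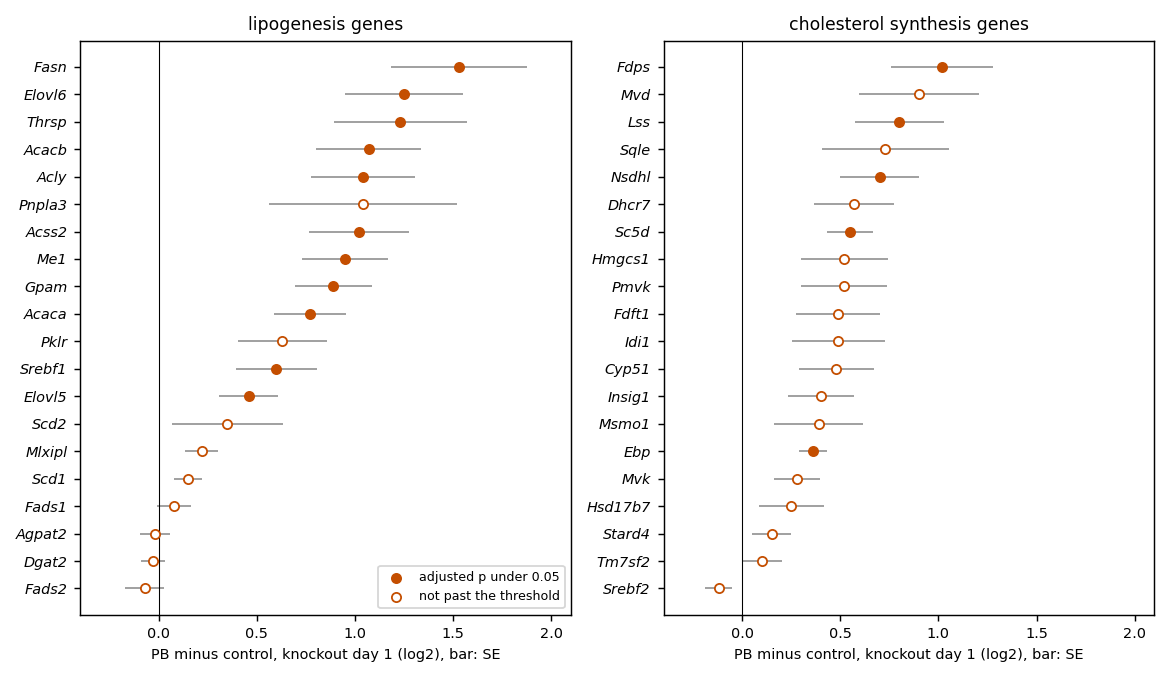
Difference between phenobarbital (PB) and control in the day 1 knockout, in log2 units with SE, for 20 lipogenesis and 20 cholesterol synthesis genes; filled points are past the threshold. 11 lipogenesis genes and 5 cholesterol genes are filled, all to the right of 0, and the largest are Fasn (1.53) and Fdps (1.02).

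Cholesterol synthesis moved in the same direction with fewer calls. Of 20 genes tested, 5 were higher and 0 lower, with a median difference of 0.49 and 19 differences above 0. Fdps, which makes farnesyl diphosphate, stood at 9.50, 10.65, 10.80, 10.72 and 11.10 in controls and at 11.83, 11.74, 11.62, 11.13 and 11.54 in treated animals, a difference of 1.02 ± 0.26 (adjusted p = 0.00606). The groups did not overlap, and control 3001 lay far below the other controls. Lss, the lanosterol synthase, was higher by 0.80, Nsdhl by 0.70, Sc5d by 0.55 and Ebp by 0.36, which act in later steps. Mvd (0.90, adjusted p = 0.05 after rounding), Sqle (0.73) and Hmgcs1 (0.52) did not pass, and Srebf2, which encodes the sterol-sensing factor SREBP-2, differed by −0.12. Without 3001 the count was 2, without 4004 it was 9, and with the clock index 11. Fdps, Lss and Nsdhl lost their call without 3001. In wild type 17 of the 20 were higher on day 1, where 5.02% of all genes tested were higher and 6.97% lower. In humanized mice 6 were higher, against 3.95% of all genes higher and 7.78% lower.

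The classical targets of CAR and PXR showed little. Of 24 phase I genes tested, which carry out the oxidation and related first steps of drug metabolism, 2 were higher and 2 lower in the knockout, with a median of −0.01. In wild type 15 of the 24 were higher on day 1 and in humanized mice 13. Cyp2b10 stood at 5.33, 5.10, 4.97, 5.17 and 5.72 in knockout controls and at 5.36, 6.05, 5.47, 5.73 and 5.46 in treated animals. The groups overlapped, and the difference of 0.36 ± 0.19 was not called (adjusted p = 0.258), against 6.50 in wild type and 4.38 in humanized mice. For Cyp2c55 the values were 0.39 (adjusted p = 0.103), 4.60 and 2.71, for Cyp2c29 −0.07, 0.68 and 0.32, and for Cyp3a11, near the top of the scale at 14.25 to 14.38, 0.00, 0.15 and 0.14. The 2 genes that rose were the aldehyde dehydrogenases Aldh1b1 (0.58 ± 0.17, lost without 3001, 3004 or 4005) and Aldh1a7 (0.38 ± 0.08). The 2 that fell were Cyp2c37 (−0.57 ± 0.14, lost without 3001), which rose by 1.06 in wild type, and Cyp3a13 (−0.32 ± 0.10, lost without 6 of the 10 animals). Gadd45b, an early CAR response gene, differed by −0.01.

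A part of the conjugation genes was the exception. Of 24 phase II genes tested, 8 were higher (against 3.46% of all genes tested) and 0 lower, with a median of 0.12. In wild type 15 of the 24 were higher on day 1 and in humanized mice 13, with medians of 0.40 and 0.31. Among all genes tested 5.02% and 3.95% were higher there. Gstm3, a mu-class glutathione transferase, stood at 9.45, 10.37, 10.89, 9.94 and 10.25 in controls and at 11.45, 11.40, 11.53, 11.32 and 11.63 in treated animals. Every treated animal, 4004 included, lay above every control, and the spread among treated animals was far smaller than that among controls. The difference was 1.29 ± 0.18 (adjusted p = 2.19e-07), and it stayed called under every single removal (1.10 to 1.46).

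Its neighbours in the class rose too: Gstm4 by 0.87 ± 0.12, Gstm6 by 0.77 ± 0.12, Gstm2 by 0.68 ± 0.16 and Gstm1 by 0.44 ± 0.10. These genes are close copies, and 1 of the probe sets for Gstm3 is marked as able to bind several of them, so their signals may be shared. The theta-class genes Gstt3 and Gstt2 rose by 0.53 and 0.41, and Ugdh, which makes UDP-glucuronic acid, by 0.27. Gsta2 (0.11), Gsta3 (−0.05), Gstp1 (0.06) and 5 Ugt2b genes (−0.10 to 0.10) did not pass. The 8 fell to 4 without 3001. Gstm3 in day 1 controls lay 0.67 below the knockout controls of other days (a difference of −0.67), and in treated animals 0.61 above them. In wild type Gstm3 rose by 2.87 and in humanized mice by 2.44. Gstm6 alone of the named mu-class genes had its largest day 1 difference in the knockout, against 0.39 and 0.36, and the difference of effects missed the threshold for both comparisons. Of 12 genes of the NRF2 oxidative stress response, 5 were higher and 1 lower: Me1, the pentose phosphate enzyme Pgd (0.74), the quinone reductase Nqo1 (0.41), Srxn1 (0.29) and Txnrd1 (0.20) rose, and Gclm (−0.19), for glutathione synthesis, fell. Me1 and Pgd also serve lipogenesis. The count of higher genes was 2 without 3001, 4001 or 4005, and on the 10 arrays alone 1 was. Among all genes tested 3.46% were higher. In wild type 5 of the 12 were higher on day 1 and in humanized mice 6, against 5.02% and 3.95% of all genes tested.

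**Figure D4:**
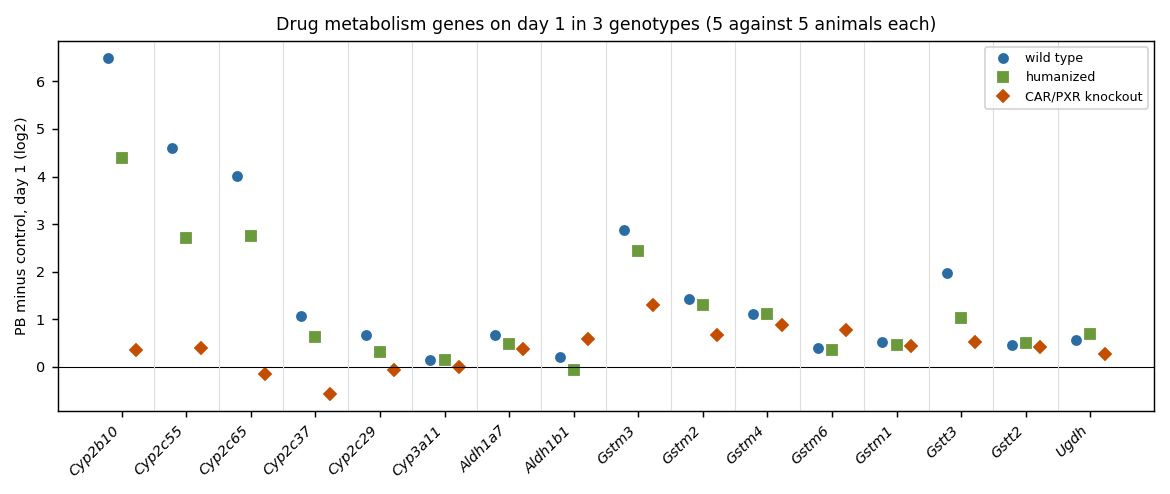
Difference between phenobarbital (PB) and control on day 1 in log2 units for 16 drug metabolism genes in wild-type (blue circles), humanized (green squares) and CAR/PXR knockout mice (orange diamonds), 5 against 5 animals in each. Cyp2b10 lies at 6.50, 4.38 and 0.36 in that order, while Gstm1 (0.52, 0.47 and 0.44) and Gstt2 (0.47, 0.50 and 0.41) lie close together.

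The largest fall was that of Socs2, a growth hormone and STAT5 target that damps the hormone's signal. It stood at 8.93, 8.73, 8.92, 8.50 and 9.80 in controls and at 6.53, 6.93, 7.01, 7.76 and 6.62 in treated animals. The groups did not overlap, and the difference was −2.01 ± 0.66. In the model of all groups it passed narrowly (adjusted p = 0.0414) and 8 of the 10 single removals ended the call, whereas on the 10 arrays alone the SE was 0.25 and the adjusted p 0.00876. Of its 4 probe sets 2 were called lower and the others differed by up to 0.35 in the opposite direction. Among 17 growth hormone and STAT5 genes, Socs2 and Igfals (−0.47 ± 0.10), which carries IGF1 in the blood, were lower and none higher, against 5 lower in wild type and 8 in humanized mice. Of all genes tested, 4.61% were lower in the knockout, 6.97% in wild type and 7.78% in humanized mice. Igf1 (−0.12), Cish (−0.13), Bcl6 (−0.77) and Onecut1 (−1.31) did not pass.

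Several genes known from fasting and stress were lower. Mt1, a metallothionein raised by glucocorticoids and metals, stood at 9.08, 8.72, 9.14, 10.92 and 8.89 in controls and at 7.47, 7.94, 7.84, 7.60 and 7.67 in treated animals. There was no overlap, control 3004 stood far above the rest, and the difference was −1.64 ± 0.40, or −1.25 at its smallest when 1 animal was left out. Its other probe set read −0.12 and was not called. The day 1 controls lay 1.09 above other knockout controls for this gene. Angptl4, an inhibitor of lipoprotein lipase under PPAR alpha and glucocorticoid control, stood at 9.43, 8.81, 9.40, 10.18 and 8.16 in controls and at 7.77, 7.60, 7.98, 9.14 and 7.98 in treated animals. Only 4004 lay within the control range, and the difference was −1.10 ± 0.31 (adjusted p = 0.0161; lost without 3001, 3004, 4001 or 4002).

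Slc25a30, a mitochondrial carrier, differed by −1.70 ± 0.52, with controls at 8.32 to 10.11 and treated animals at 7.35 to 8.12 (lost without 6 of the 10 animals). Acot1, an acyl-CoA thioesterase, differed by −0.64 (lost without 7 animals). These with Angptl4 were the 3 called of 28 PPAR alpha and fasting genes, all lower, with a list median of −0.15. Of all genes tested, 4.61% were lower. The count of 3 was 0 without 3001, 3004, 4001 or 4002, and 6 without 3003. Cpt1a (−0.37), Pdk4 (0.36) and Cyp4a14 (−1.15) did not pass. Of 22 glucocorticoid-responsive genes the 3 called were Mt1, Angptl4 and Per1, all lower, with a median of −0.27, and 1 was lower without 3001, 3004, 4001 or 4002. Tsc22d3 (−0.59), Fkbp5 (−0.28) and Zbtb16 (−0.72) did not pass, nor did Tat (0.46). In day 1 humanized mice 6 of the 22 were lower and in wild type 4, where 7.78% and 6.97% of all genes tested were lower.

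Acute phase genes, which the liver raises in inflammation, had 5 lower and 0 higher of 24, with a median of −0.17: Lbp, which binds lipopolysaccharide (−0.54 ± 0.12), Saa4 (−0.33), Itih3 (−0.27) and the fibrinogen chains Fgb (−0.14) and Fgg (−0.11). Lbp had controls at 9.49 to 9.86 and treated animals at 8.99, 8.84, 8.90, 9.54 and 9.14, so that 4004 alone lay within the control range, and its other probe set read −0.08. The count of 5 was 2 without 3001, 4002 or 4003, and 0 on the 10 arrays alone. Among all genes tested 4.61% were lower. In wild type 6 of the 24 were lower and 2 higher on day 1, and in humanized mice 8 were lower and 0 higher. Of all genes tested, 6.97% and 7.78% were lower in these genotypes. Saa1 (−0.23) and Saa2 (−0.09) did not pass.

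E2f8, an S phase repressor of the E2F family, was lower by 0.99 (a difference of −0.99 ± 0.26), with controls at 5.72 to 6.89 and treated animals at 5.18 to 5.38. Mcm5, a subunit of the replication helicase, was the 1 called of 24 S phase genes and was higher (0.63 ± 0.21, lost in 8 of 10 single removals); controls held 5.53 to 6.21 and treated animals 6.27 to 6.65. Among all genes tested 3.46% were higher in the knockout. In wild type 13 of the 24 were higher on day 1, against 5.02% of all genes tested. No G2/M gene of 12 tested was called in the knockout, against 5 higher in wild type.

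Of the other genes with the largest rises, Chrna4, a nicotinic receptor subunit, went from 4.95 to 5.51 in controls to 5.56 to 6.92 in treated animals (1.01 ± 0.25), and Mterf2, a mitochondrial transcription factor, from 4.81 to 6.00 to 5.77 to 6.81 (1.00 ± 0.18). The fall of Gfra1, a receptor for GDNF family ligands, was small but even: controls held 9.83 to 10.20 and treated animals 9.13 to 9.63 (−0.68 ± 0.10, adjusted p = 2.19e-07). Its 3 probe sets differed by −0.68 to −0.26, and 1 of them was called. Gfra1 was also called lower in wild type (−0.37) and humanized mice (−0.34). Kcnt2, a potassium channel, differed by −0.87 (lost in 9 of 10 single removals), and the day 1 controls lay 0.82 above other knockout controls for it. Serpina9 (−0.77), the flavin monooxygenase Fmo2 (−0.75), Nlrp12 (−0.74), Cyp2j9 (−0.72) and Carmil1 (−0.68) were also among the 14 largest falls when predicted genes are left out. Of these, Serpina9 and Cyp2j9 kept their call under every single removal. Serpina9 read low, at 4.05 to 5.08 in controls and 3.68 to 4.10 in treated animals, under the array medians of 5.158 to 5.22. Kcnt2 was near or under these medians too, at 5.06 to 5.53 in controls and 4.17 to 4.78 in treated animals.

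Smaller called differences in other lists were those of Shmt2 (0.26) and Psph (0.30) among 17 amino acid stress genes, Stip1 (0.38) among 16 heat shock genes, Slc2a2 (0.24), the hepatic glucose transporter, among 20 gluconeogenesis and insulin-responsive genes, and Ei24 (−0.29) among 13 p53 targets. Alad (0.27) and Fech (−0.19), the second and last enzymes of haem synthesis, were called in opposite directions, and the other probe set of Alad read −0.33. Slc27a5 (−0.15) was the 1 called of 17 bile acid genes. No member was called among 14 drug transporters, 17 chaperones of the endoplasmic reticulum, 14 immediate early genes, 9 interferon genes, 15 male-biased and 9 female-biased liver genes, or 16 perivenous genes.

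On the 10 arrays alone, 22 of the 63 named genes called in the main model were called. They were Gstm3, Gstm4, Gstm6, Fasn, Elovl6, Acss2, Me1, Sc5d, Chrna4, Aldh1b1, Aldh1a7, Mcm5, Tspan4, Socs2, Slc25a30, Mt1, E2f8, Kcnt2, Serpina9, Fmo2, Gfra1 and Igfals. Dbp then had an adjusted p of 0.104, Cry1 of 0.157 and Angptl4 of 0.126.

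The same day in the other genotypes used different animals throughout, so that the comparisons share no array. They do share the model's estimate of each gene's spread, so the calls counted below are not independent between genotypes. Of the 437 genes higher in the knockout, 124 were higher in wild type (28.4% of the knockout's and 19.6% of the wild type's 634) and 132 in humanized mice (30.2% and 26.5% of 498). Of the 582 lower genes, 223 were lower in wild type (38.3% and 25.3% of 880) and 303 in humanized mice (52.1% and 30.9% of 982). Called in opposite directions were 4 genes between knockout and wild type and 2 between knockout and humanized mice. Me1 and Thrsp rose in all 3 genotypes, Me1 by 0.95, 0.74 in wild type and 1.05 in humanized mice. Cry1, Lonrf3, Nfil3, Igfals, Angptl4 and Lbp fell in all 3. Socs2 was called in the knockout alone, at −2.01 against −1.14 in wild type and −0.04 in humanized mice, but neither difference of effects was called for it.

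The difference of effects was tested directly. Between knockout and wild type it was called for 159 genes (1.26%), 49 with a more positive effect in the knockout and 110 with a more negative one. The lowest were Cyp2b10 (−6.14), Cyp2c55 (−4.21), Cyp2c65 (−4.16), Cnmd (−1.73) and Cyp2c37 (−1.63), in each of which the wild type rose. The highest were Serpina7, the thyroxine-binding globulin (1.44), Hectd2os (1.41), the phosphodiesterase Pde5a (1.40), 4933405D12Rik (1.06) and Zfp707 (0.75). Of these 10, Hectd2os (0.92) and Cyp2c37 were called in the knockout itself, while Pde5a differed by −1.16 in wild type and by 0.24 in the knockout. Between knockout and humanized mice 42 genes were called (0.333%), among them Cyp2b10 (−4.03), Cyp2c65 (−2.90), Cyp2c55 (−2.32), Prom1 (−1.99) and the efflux pump Abcc4 (−1.54). No tested member of the lipogenesis, cholesterol or clock lists was called in either difference of effects.

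Within the knockout the first day differed from later days. The mean effect of days 7, 14, 28 and 91, each against its own controls, was called for 703 genes higher (5.57%) and 930 lower (7.37%), nearly all of them small. Single days gave 2, 41, 651 and 435 called genes in that order. Treated arrays 4019 (day 28) and 4024 (day 91) were the most alike of all pairs (SD of the log2 difference 0.056, no gene over 2-fold), so that days 28 and 91 and the later mean may count 1 sample more than once. Without both, the later mean was called for 1542 genes (606 higher, 936 lower), day 28 for 577 and day 91 for 327, and Gstm3 (0.42) and Socs2 (−1.82) were still called in the later mean. Of the 437 genes higher on day 1, 116 were higher in the later mean (26.5%, and 16.5% of the 703) and 7 lower, and of the 582 lower on day 1, 166 were lower (28.5%, and 17.8% of the 930) and 7 higher. Day 1 minus the later mean was called for 221 genes (1.75%), 82 above 0 and 139 below. Without 3001 this count was 80 and without 4004 it was 372.

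The 5 largest differences above 0 were those of Dbp, Fabp5, Lpin1, Nr1d2 and Me1, and the 5 largest below 0 those of Orm2 (−1.27), 9030619P08Rik (−1.18), Chka (−1.14), Cry1 and Lonrf3. Dbp differed by 2.25 on day 1 and by 0.49, −0.39, −1.66 and −0.49 on days 7 to 91. Its difference from the later mean was 2.76 ± 0.73 (adjusted p = 0.0238), a call lost without 3001, 3004, 4001, 4003 or 4005. The −1.66 of day 28 was taken against controls spread from 5.81 to 10.47 (mean 7.06), while treated animals lay at 4.78 to 6.34 (mean 5.41). Nr1d2 (1.62), Cry1 (−1.12) and Lonrf3 (−1.08) were called under every single removal. Fabp5 differed by 1.68 on day 1 and by −0.71 to −0.35 later (2.19 ± 0.52, lost without 3001), and Me1 by 0.95 on day 1 and −0.73 to −0.22 later (1.32 ± 0.25). Lpin1, a phosphatidate phosphatase, differed by 0.93 on day 1, which was not called, and by −1.31, −1.35, −1.30 and 0.03 later (1.91 ± 0.40). Of the 20 lipogenesis genes 1 was higher and 2 were lower in the later mean, with a median of 0.02.

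Other genes had the same sign on every day. Gstm3 differed by 1.29 on day 1 and by 0.37, 0.50, 0.48 and 0.46 later, and it was called in the later mean (0.45, adjusted p = 0.00034). Socs2 differed by −2.01 on day 1 and by −1.42, −2.42, −1.53 and −2.15 later, with a later mean of −1.88 (adjusted p = 7.77e-05). Angptl4 differed by −1.10 and then by −0.41, −1.51, −1.19 and −0.27. For Socs2 and Angptl4 the first day was not called different from the later mean.

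**Figure D5:**
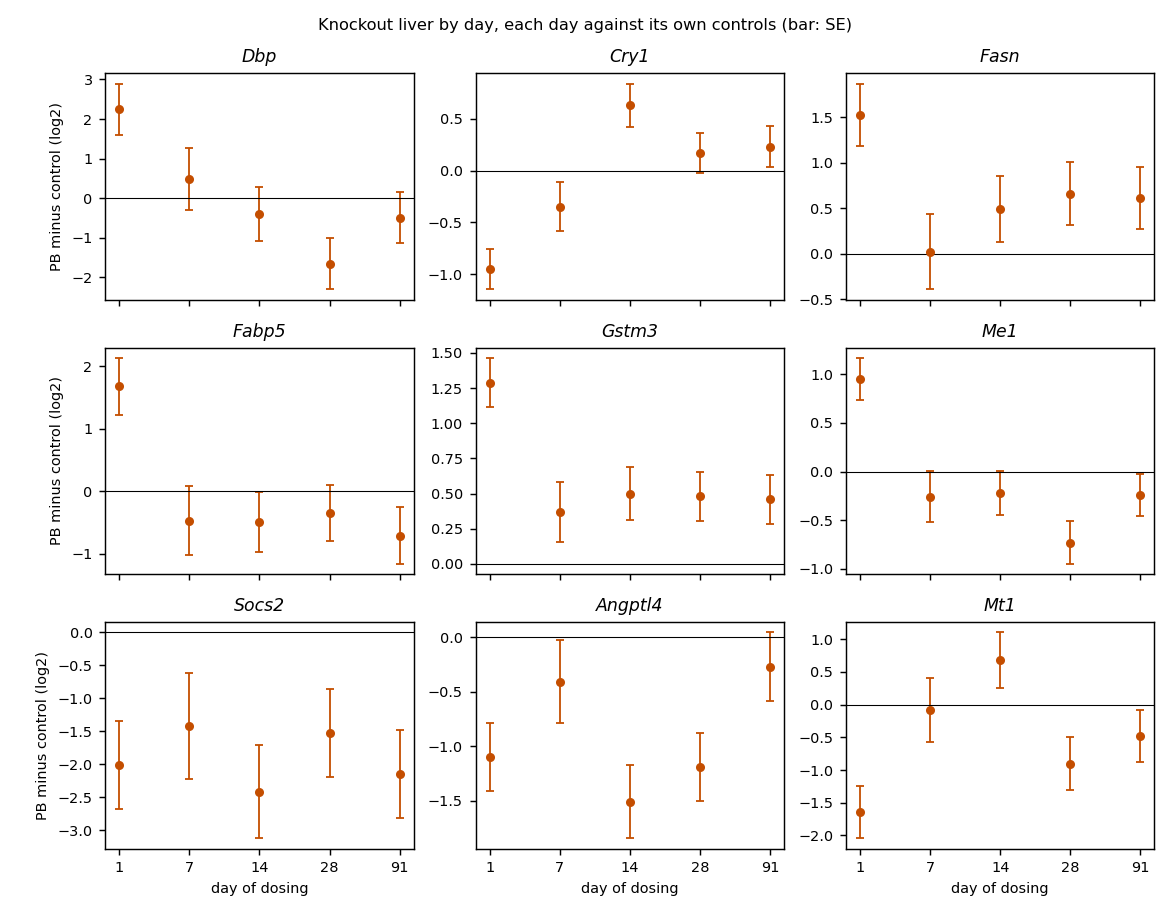
Difference between phenobarbital (PB) and control in knockout liver by day of dosing (equally spaced, not to scale), in log2 units with SE, for 9 genes, each day against its own 3 to 5 controls. Dbp (2.25), Fabp5 (1.68) and Me1 (0.95) are highest on day 1 and at or below 0.49 afterwards, while Socs2 lies between −2.42 and −1.42 and Gstm3 between 0.37 and 1.29 on all 5 days.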

How the data were processed

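Liver RNA of 167 samples was measured on Affymetrix mouse arrays of 45101 probe sets. The deposited values are log2 intensities normalized with RMA, per the submitters' processing notes, and ranged from 2.11 to 15.07. Array medians of 5.158 to 5.22 in the 10 samples described show that the arrays were on 1 scale; the number of arrays limits the precision. Of the probe sets, 34958 carried 1 gene symbol, 932 several and 9211 none; 34754 were matched by gene identifier to RefSeq (GRCm38.p6). Each gene was represented by the probe set of highest mean, and 12623 of 18194 genes were tested, those above the array's median on at least 3 arrays. A linear model of 36 group means was fitted in limma 3.58.1 (R 4.3.3) to 166 samples, with 2 near-identical arrays of 1 group averaged; a more alike pair, of treated knockout animals on days 28 and 91, was kept as labelled, with a fit without it. P-values were two-sided and adjusted by Benjamini-Hochberg within each comparison. The model shares 1 estimate of each gene's spread over all groups. The clock index was tested by exact permutation. Nothing in the labels used here names cages or days of killing, so no p-value accounts for either. The p-values of the model rest on the spread between animals within all 36 groups, not on that of the 10 animals alone. For Socs2 the SE was 0.664 in the model and 0.251 on the 10 arrays, and for Cry1 0.195 and 0.329.

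The members and the gene lists were chosen with earlier results of these data known. Named genes were 12 fixed ones, the 14 largest called rises and falls (predicted genes with Gm, LOC or Rik symbols left out), up to 4 called members of each list and the 5 largest differences of effects each way; other list members were named after their values were seen. The fit was tested on simulated data. Alternatives changed the samples in the fit, probe set rule, filter, scaling, variance model and covariates, and left out each animal in turn.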

Additional observations from a re-analysis of the deposited data

Results flagged for a closer look

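Single animals stood far from the rest of their group in 11 of 164 sets of 5 values examined, where chance gives about 1 in 20. Among controls, Arntl was at 8.03 in 3004 (8.20 to 8.26 in the others), Mt1 at 10.92 in 3004 (8.72 to 9.14), Fdps at 9.50 in 3001 (10.65 to 11.10), Nsdhl at 9.00 in 3001 (9.90 to 10.17), the aldehyde dehydrogenase Aldh1a7 at 12.36 in 3001 (12.58 to 12.63), and the mean of the neutrophil markers at 5.36 in 3005 (5.06 to 5.15). Among treated animals, Angptl4 was at 9.14 in 4004 (7.60 to 7.98), Lss at 8.60 in 4004 (9.29 to 9.50), Aldh1a7 at 12.73 in 4004 (12.97 to 13.01), Acot1 at 8.18 in 4005 (7.99 to 8.03), and the mean of the pancreatic acinar markers at 8.98 in 4002 (5.17 to 5.25).

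The effect of treatment differed between groups by a direct test in limma. Against wild type on day 1 it differed for 159 genes. The knockout's effect was more positive for Serpina7 (1.44), Hectd2os (1.41), Pde5a (1.40), 4933405D12Rik (1.06) and Zfp707 (0.75), and more negative for Cyp2b10 (−6.14), Cyp2c55 (−4.21), Cyp2c65 (−4.16), Cnmd (−1.73) and Cyp2c37 (−1.63). Serpina7 lost this call without any of 8 animals, Zfp707 without any of 4 and Hectd2os without 3005, whereas all 5 negative ones kept it under every single removal.

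Against humanized mice it differed for 42 genes. The more positive were Stxbp4 (0.73), Cpn1 (0.53), Ccdc30 (0.51), Cbs (0.48) and Hsd3b3 (0.45), each lost without at least 1 animal. The more negative were Cyp2b10 (−4.03), Cyp2c65 (−2.90), Cyp2c55 (−2.32), Prom1 (−1.99) and Abcc4 (−1.54), of which Prom1 was lost without 3003, 4003 or 4005.

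Against the mean of the later days in the knockout it differed for 221 genes. Dbp (2.76), Fabp5 (2.19), Lpin1 (1.91), Nr1d2 (1.62) and Me1 (1.32) were more positive on day 1. Orm2 (−1.27), an acute phase protein, 9030619P08Rik (−1.18), the choline kinase Chka (−1.14), Cry1 (−1.12) and Lonrf3 (−1.08) were more negative. Dbp, Fabp5, Orm2, 9030619P08Rik and Chka lost this call without 3001.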

How the results depend on the processing

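Fitted on the compared groups only, the called genes fell from 1019 to 167 (92 higher, 75 lower), and the differences of effects from 159 to 89 against wild type, from 42 to 13 against humanized mice and from 221 to 107 against the later days; fewer samples then estimate the spread. The last of these was 118 within the 12 knockout groups and 344 with array weights. Leaving out 1 animal at a time gave 388 to 1372 called genes (155 to 511 higher, 233 to 861 lower), 121 to 161, 27 to 51 and 80 to 372 differences of effects in the same order, and a clock index difference of 2.06 to 3.43, which was 2.55 without 3001 and 2.52 without 3004 (exact p = 0.0635 for each). Without both 4002 and 4004, an alternative chosen after seeing the data, 701 genes were called, and with the pancreas level as a covariate 908. With that covariate the differences of effects were 145 against wild type and 38 against humanized mice. Without the near-identical arrays 4019 and 4024, 1028 genes were called on day 1 and 218 differed from the later days; the later-day counts without them were also added after seeing the data. Median centring gave 565 higher and 466 lower genes, and quantile normalization 537 and 534. Alad, at 0.27, was −0.03 as the mean of its probe sets. The cause was not tested for any of these. The other fits, with another filter, no filter, the mean of probe sets or a trended variance, gave 817 to 1054 called genes. No paired analysis was possible because animal numbers are not shared between groups.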

Other observations

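Some genes that were not called split the animals within an arm; they were chosen after their values were seen. Among the controls, Onecut1, a liver transcription factor under growth hormone control, was at 9.50, 9.08 and 9.79 in 3002, 3004 and 3005 and at 7.45 and 7.34 in 3001 and 3003, while the 5 treated animals lay at 7.12 to 7.54. Cish, a STAT5 target, was at 8.61, 7.81 and 8.62 in the first 3 of these controls and at 6.44 and 6.34 in the other pair. Bcl6, a repressor that acts against STAT5, was high in that pair, at 10.13 and 10.24, against 7.15 to 8.05 in the other controls, and reached 9.93 in treated 4001.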
